A study of Homo sapiens with 11 samples.

Results

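The comparison described here is between 2 libraries of H7 human embryonic stem cells held in the naive medium 5iLA, 1 from cells given the uCCNE1 short hairpin RNA (shRNA) and 1 from cells given a control shRNA. They were chosen by their labels, as the uCCNE1 and control columns of 5iLA in a table of 9 shRNA libraries, and they are 2 of the 11 libraries of the series. All 9 shRNA libraries came from lentivirus-infected cells collected at day 5, with 3 shRNAs (control, uCCNE1 and pCCNE1) in each of 3 cultures, which were primed H1, 5iLA H7 and t2iGo H1, the last a second naive medium. The other 2 libraries were untreated H7 cells, 1 in 5iLA and 1 primed, and sit in a table of their own. The labels name pCCNE1 as a primate-specific splice form of CCNE1 and do not say which transcripts the uCCNE1 hairpin meets. H1 and H7 are established embryonic stem cell lines, so line and culture cannot be told apart between 5iLA H7 and the H1 libraries. Each group was 1 library. The difference between the 2 libraries therefore has no replicate check and no p-value, and a gene is called higher or lower here only where it passed 2-fold on the log2(RPKM + 1) scale, RPKM being reads scaled to transcript length and library size.

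CCNE1 encodes cyclin E1, which binds the kinase CDK2 and drives entry into S phase, when DNA is copied and histones are made. Pluripotent stem cells are known for high cyclin E activity through much of the cell cycle and for a short G1 phase. Naive cells resemble the epiblast before implantation, and 5iLA is a medium of kinase inhibitors with LIF and activin that holds human cells there, with genes such as DPPA5, DNMT3L, KLF17 and ALPPL2 switched on and primed genes such as CD24, ZIC2 and SFRP2 low.

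The 10 naive markers summed to 1240 RPKM in the control library, 642 in the uCCNE1 library, 740 in the pCCNE1 library of the same culture and 226 in untreated 5iLA H7. In the primed H1 libraries they summed to 3.37 to 4.64 RPKM and in the t2iGo H1 libraries to 2.83 to 3.51, so the naive label was borne out by these markers in 5iLA H7 and not in t2iGo H1. KLF17 was under 1 RPKM in both libraries compared, at 0.728 in the control and 0.693 in the uCCNE1 library. Estimated depth was 16.8 M reads in the control and 11.2 M in the uCCNE1 library, within 6.37 to 24.9 M over the series. The estimate comes from the steps that single reads leave in low values, of which 52.3% and 54.5% lay within 0.1 read of a whole number, and it is approximate. Short structural RNAs took 24.4% of all RPKM in the control library, 17.9% in the uCCNE1 library and 12.9% in the pCCNE1 library.

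Most genes were listed lower in the uCCNE1 library. The median difference over the 12116 genes with a mean of at least 1 RPKM was -0.34 on the log2 scale, and 78.9% of genes lay below 0. Values of at least 2-fold were found for 598 genes on the lower side (4.94%) and 64 on the higher side (0.528%). The summed RPKM of mRNA entries was 154942 in the control and 105104 in the uCCNE1 library, 67.8% of the control. The same sum stood at 96.2% of its control for the uCCNE1 library of primed H1 and at 98.4% for that of t2iGo H1, and at 72.4% for the pCCNE1 library of 5iLA H7, which has the same control. The reads that the authors divided by are not stated, and what lowered the sum was not tested. In bulk RNA, fewer cells of a type and less of a transcript per cell cannot be told apart. Relative to the pair's median, 188 genes were at least 2-fold higher (1.55%) and 148 at least 2-fold lower (1.22%). With the mRNA sums of the libraries made equal, called the mRNA-matched scale below, the median was 0.07, with 314 genes higher (2.59%) and 129 lower (1.06%). The share of higher genes among those past 2-fold thus went from 9.67% as deposited to 56.0% relative to the median and 70.9% on the mRNA-matched scale.

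**Figure D1:**
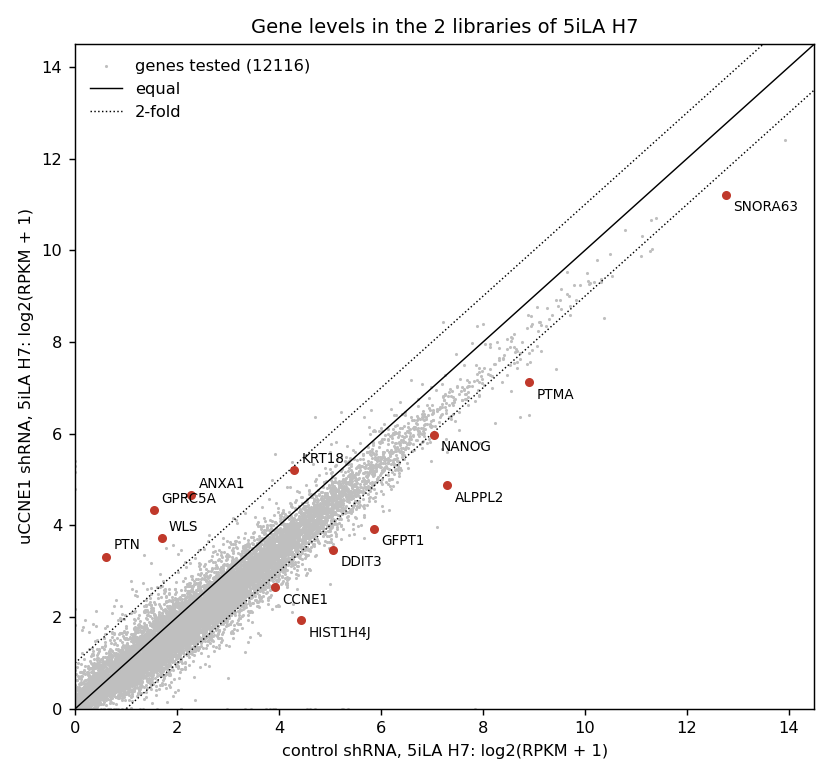
Level of each of the 12116 genes, as log2(RPKM + 1), in the control library (x axis) and the uCCNE1 library (y axis) of 5iLA H7, 1 library each. The solid line marks equal levels, the dotted lines 2-fold differences, and red points are genes named in the text; most points lie below the solid line, and 598 lie at least 2-fold below it against 64 above.

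The size of the difference followed the level of a gene and the length of its transcript. Among mRNA entries, the median was -0.02 for genes with a mean under 1 RPKM in the pair, -0.31 from 1 to 5 RPKM, -0.47 from 5 to 20, -0.57 from 20 to 100 and -0.67 at 100 RPKM and above. By length, it was -0.66 for transcripts under 1000 bases, of which 20.6% were at least 2-fold lower, and -0.44 for those of 4000 bases and above, of which 4.58% were. The added 1 RPKM pulls low genes toward 0, so a list of genes with low levels sits above the pair's median on the deposited scale. The mRNA-matched value stands beside each list for that reason, but a trend with level and length stayed on that scale. Its medians went from 0.13 under 1 RPKM to -0.11 at 100 RPKM and above. By length they went from -0.12 under 1000 bases to 0.06 at 4000 bases and above. Transcript length correlated with the difference over 4668 mRNA entries of at least 5 RPKM (Pearson r = 0.19, Spearman rho = 0.17, over genes, which are not independent), and GC content did so at nearly the same size with the opposite sign (r = -0.17, rho = -0.14). The part of length, GC content and depth in the results for short transcripts was not tested beyond a repeat with transcripts of at least 1000 bases.

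**Figure D2:**
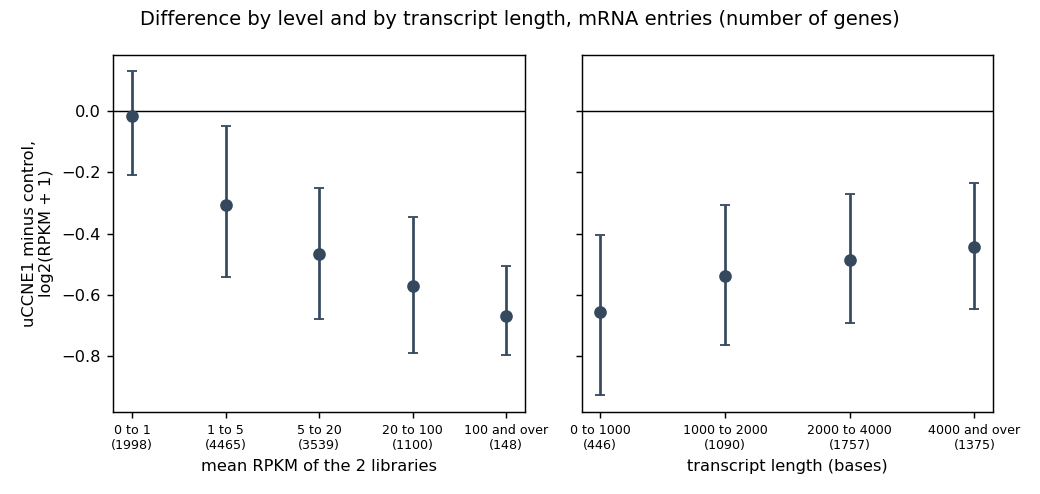
Median difference of mRNA entries between the uCCNE1 and control libraries of 5iLA H7, in log2(RPKM + 1), with bars from the lower to the upper quartile over genes, by mean level of the pair (left) and transcript length in bases (right). The median falls from -0.02 in the lowest class of level to -0.67 in the highest, and is -0.66 for the shortest transcripts and -0.44 for the longest.

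CCNE1 was listed at 14.1 RPKM in the control library, 5.27 in the uCCNE1 library, 8.38 in the pCCNE1 library and 8.48 in untreated 5iLA H7. The uCCNE1 library thus held 37.3% of the control level, the lowest of the 4 libraries of 5iLA H7. It also had the lowest mRNA sum of the 4, at 105104 RPKM, against 112118 in the pCCNE1, 153310 in the untreated and 154942 in the control library. How many of all genes were lowest in it was not counted, here or for the genes named below. The difference was -1.27 on the log2(RPKM + 1) scale, -0.94 relative to the pair's median and -0.80 on the mRNA-matched scale. From the estimated reads, about 484 in the control and 121 in the uCCNE1 library, the log2 ratio of RPKM had a 95% interval of -1.72 to -1.13, which covers counting error only. In primed H1 the gene went from 11.95 RPKM in the control to 6.75 with the uCCNE1 shRNA, and in t2iGo H1 from 9.65 to 5.38, mRNA-matched differences of -0.65 and -0.74. A gene-level RPKM adds up all splice forms, so it does not show which CCNE1 transcripts were lowered.

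Of 15 tested genes of cyclin E, CDK2 and their regulators, 3 were at least 2-fold lower as deposited, against 4.94% of all genes, and none was so on the mRNA-matched scale. Besides CCNE1 these were CDKN1B, the CDK2 inhibitor p27, and CKS1B, a small CDK-binding protein. CDKN1B was at 18.1 RPKM in the control, 8.05 in the uCCNE1 library, 6.88 in the pCCNE1 library and 9.01 in untreated cells. CKS1B was at 36.1, 16.6, 25.1 and 28.5 in that order. For both genes the control was the highest library of 5iLA H7. The list's median was -0.48 as deposited and 0.01 mRNA-matched. CDK2 itself stood at 6.93 and 5.26 RPKM, a difference of -0.34, equal to the pair's median to 2 decimals. CCNE2, the second cyclin E gene, was listed at 0.347 RPKM in the control, 1.10 in the uCCNE1 library, 0.525 in the pCCNE1 library and 2.24 in untreated 5iLA H7. Its mRNA-matched difference of 1.10 was the only one of the list at or past 2-fold, at a level near 1 RPKM. The 19 tested genes of the D-type cyclins, RB proteins and E2F factors had medians of -0.20 as deposited and 0.30 mRNA-matched. Their 8 members of at least 5 RPKM had medians of -0.49 and -0.006. As deposited 1 member was at least 2-fold higher (0.528% of all genes) and 1 lower (4.94%). The higher one, CCND2, which activates CDK4 and CDK6, was at 2.31 RPKM in the control and 5.87 in the uCCNE1 library, and at 1.94 in the pCCNE1 library and 17.0 in untreated cells. The lower one, CCND3, another partner of these kinases, was at 5.22 RPKM in the control and 2.10 in the uCCNE1 library.

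Replication-dependent histone genes, which are transcribed in S phase and whose mRNAs end in a stem-loop, were the list with the lowest median in the comparison. All 43 tested members were lower in the uCCNE1 library as deposited, where 78.9% of all genes were, with a median of -1.14 against -0.34 for all genes. Of these members 27 were at least 2-fold lower, against 4.94% of all genes. Among mRNA entries of at least 5 RPKM with transcripts under 1000 bases, 20.6% were. On the mRNA-matched scale 41 of 43 lay below 0, where 42.0% of all genes did. The median there was -0.60, and 6 were at least 2-fold lower against 1.06% of all genes. The linker histone gene HIST1H1C was listed at 145 RPKM in the control library, 49.5 in the uCCNE1 library, 96.0 in the pCCNE1 library and 131 in untreated cells. HIST1H2AC, a core histone H2A gene, was at 64.5 RPKM in the control and 18.9 in the uCCNE1 library, and at 47.0 and 62.5 in the pCCNE1 and untreated libraries. For both genes the uCCNE1 library was the lowest of the 4. The smallest differences were those of HIST1H3J, at 32.1 and 25.7 RPKM, and HIST1H1A, at 32.2 and 24.8. HIST1H4J, a histone gene that is not a member of this list, had the lowest difference of all named genes. It was at 20.7 RPKM in the control and 2.81 in the uCCNE1 library, from about 129 and 12 estimated reads. With the uCCNE1 shRNA the mRNA-matched list median was -0.95 in t2iGo H1. In primed H1 histone genes took 0.0172% of all RPKM in the control and 0.0208% in the uCCNE1 library, against 1.35% and 0.964% in 5iLA H7, so the list median of 0.00 there was taken at levels too low to show a change. With the pCCNE1 shRNA in 5iLA H7, against the same control library, it was 0.60. These transcripts are short (median 411 bases), lack a poly(A) tail for the most part and share sequence with one another, so single members are uncertain. The 10 members with transcripts of at least 1000 bases had an mRNA-matched median of -0.77.

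G2 and mitosis genes were lower as a list with few large single differences. As deposited, 40 of 42 members lay below 0, as did 78.9% of all genes, and 13 were at least 2-fold lower, against 4.94%, with a median of -0.71. On the mRNA-matched scale 33 of 42 lay below 0, none was at least 2-fold lower and the median was -0.20, against 42.0% of all genes below 0 and a median of 0.07. UBE2C, the ubiquitin-conjugating enzyme of the anaphase-promoting complex, was at 62.9 RPKM in the control, 25.8 in the uCCNE1 library, 29.4 in the pCCNE1 library and 66.8 in untreated cells. MAD2L1, a spindle checkpoint protein, was at 36.2, 14.9, 18.0 and 25.3 RPKM in the same order. NUSAP1, a spindle microtubule protein, was at 53.1, 22.3, 34.6 and 42.9 RPKM. In each of these 3 genes the uCCNE1 library was the lowest of the 4, as it was in summed mRNA. CDK1, the mitotic kinase, was at 41.9 RPKM in the control and 18.95 in the uCCNE1 library, and TOP2A, the topoisomerase that untangles sister chromatids, at 46.7 and 22.3. Members did not move alike: ASPM, a spindle pole protein, was at 6.82 RPKM in the control and 9.11 in the uCCNE1 library, and FOXM1, a transcription factor of mitotic genes, at 13.6 and 10.7. The list's mRNA-matched median was -0.11 in primed H1, 0.05 in t2iGo H1 and 0.15 with the pCCNE1 shRNA in 5iLA H7. The 44 genes of DNA replication, which include the MCM helicase and the polymerases, had a deposited median of -0.61 and an mRNA-matched median of -0.09. On the mRNA-matched scale none passed 2-fold. As deposited 2 members were at least 2-fold lower, a count that does not exceed the 4.94% of all genes. Those were POLD1, the catalytic subunit of polymerase delta, at 5.56 RPKM in the control and 2.01 in the uCCNE1 library, and RFC4, a clamp loader subunit, at 27.9 and 12.5.

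Many G2 and mitosis promoters carry a CHR element, the letters TTTGAA, through which the DREAM and MuvB complexes are known to act, often beside a CCAAT box. The promoters of MAD2L1 and NUSAP1 are shown because both genes were among the 5 list members with the largest differences and both hold the CHR letters close to the start site. The sequences are from RefSeq (GRCh38.p14), from 250 bases before the start of the gene to 50 after it, on the gene's strand, with CHR and CCAAT letters on either strand in capitals. MAD2L1 lies on the minus strand at chr4:120066799-120067098 and NUSAP1 on the plus strand at chr15:41332631-41332930.
MAD2L1: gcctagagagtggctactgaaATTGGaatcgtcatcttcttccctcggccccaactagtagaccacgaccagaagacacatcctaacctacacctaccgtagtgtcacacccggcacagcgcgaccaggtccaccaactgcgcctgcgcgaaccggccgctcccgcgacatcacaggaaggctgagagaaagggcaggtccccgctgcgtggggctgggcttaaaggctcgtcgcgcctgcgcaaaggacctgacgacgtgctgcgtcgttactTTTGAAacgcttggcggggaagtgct
NUSAP1: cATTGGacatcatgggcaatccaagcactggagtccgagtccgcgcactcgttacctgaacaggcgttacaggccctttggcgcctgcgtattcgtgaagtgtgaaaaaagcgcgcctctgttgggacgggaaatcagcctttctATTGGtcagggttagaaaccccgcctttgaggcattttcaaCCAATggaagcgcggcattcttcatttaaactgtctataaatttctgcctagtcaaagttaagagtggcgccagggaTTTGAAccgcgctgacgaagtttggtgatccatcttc
The CHR letters were present in 24 of the 35 list promoters that could be matched (68.6%), and in 901 of 9284 promoters of tested mRNA entries (9.70%). CCAAT, which does not overlap TTTGAA, was present in 26 of 35 (74.3%) and in 3496 of 9284 (37.7%). These are counts of letters in a window of the reference, not of bound sites.

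Genes of the ATF4 response, which supply amino acids and load them onto tRNAs when amino acids are short or the endoplasmic reticulum is stressed, were lower nearly throughout. All 33 tested members lay below 0 as deposited, with a median of -0.96, and 16 were at least 2-fold lower, against 4.94% of all genes. On the mRNA-matched scale 31 of 33 lay below 0, the median was -0.55 and 5 were at least 2-fold lower, against 1.06% of all genes. Of the transcription factors, ATF4 itself was at 123 RPKM in the control and 70.6 in the uCCNE1 library, and DDIT3, the stress factor CHOP, at 32.4 and 10.1, with 19.4 in the pCCNE1 library and 18.7 in untreated cells. Of the serine synthesis enzymes, PHGDH was at 32.1 RPKM in the control, 11.05 in the uCCNE1 library, 16.6 in the pCCNE1 library and 24.1 in untreated cells, and PSAT1 at 49.5, 19.9, 24.6 and 67.9. In all 3 of DDIT3, PHGDH and PSAT1 the uCCNE1 library was the lowest of the 4. STC2, a secreted glycoprotein, was at 13.6 RPKM in the control and 3.53 in the uCCNE1 library, and the stress-induced mTORC1 inhibitor DDIT4 at 23.2 and 7.23. The smallest difference was that of CEBPB, at 1.63 and 1.14 RPKM. The mRNA-matched list median was -0.48 with the uCCNE1 shRNA in primed H1, -0.15 in t2iGo H1 and -0.42 with the pCCNE1 shRNA in 5iLA H7. In the genes of ER chaperones and the unfolded protein response, 23 tested, the medians were -0.49 as deposited and 0.06 mRNA-matched, and no member passed 2-fold on either scale.

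ATF4 binds a composite CCAAT-ATF element, searched here as TGATGNAA on both strands. These letters were present in 7 of 26 matched list promoters (26.9%) and in 144 of 9284 promoters of tested mRNA entries (1.55%).

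**Figure D3:**
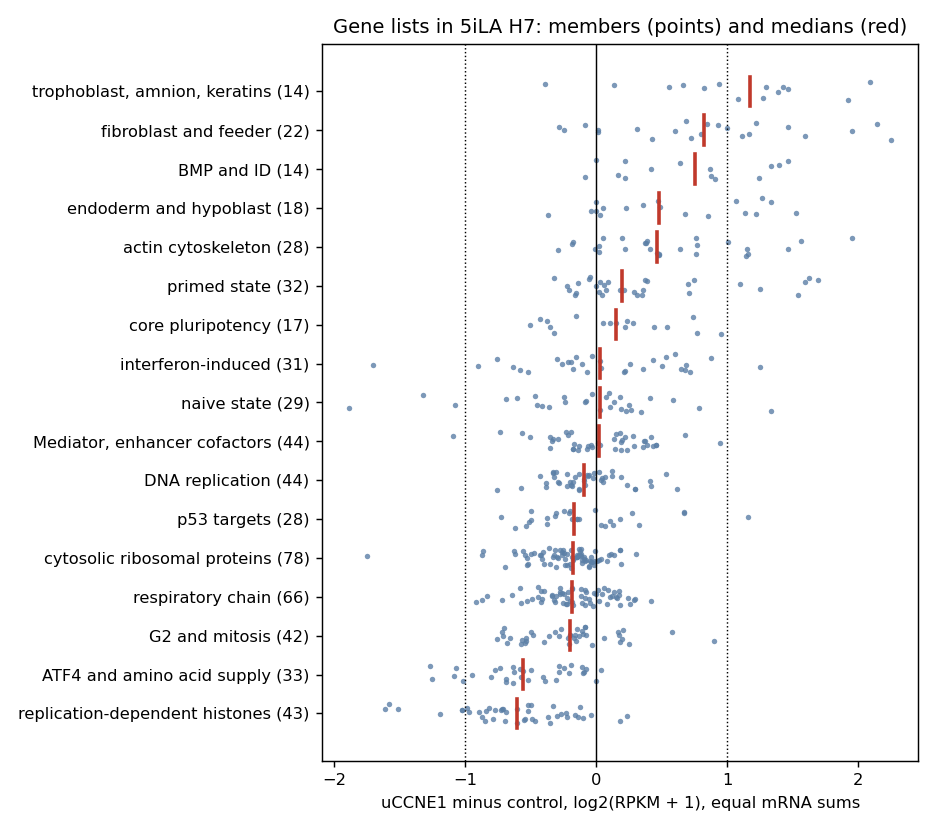
Difference of each tested list member between the uCCNE1 and control libraries of 5iLA H7 (blue points), in log2(RPKM + 1) on the mRNA-matched scale, with the list median in red and the number of members in brackets; dotted lines mark 2-fold. Histone and ATF4 lists lie lowest (medians -0.60 and -0.55) and the trophoblast, amnion and keratin list highest (1.18); vertical position within a row carries no value.

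Naive state genes were listed lower as deposited and were spread around 0 on the mRNA-matched scale. Of 29 tested, 5 were at least 2-fold lower as deposited (4.94% of all genes) and none was higher, the median was -0.50 and 21 lay below the pair's median. The mRNA-matched median was 0.03, with 15 above and 14 below 0. On that scale 3 were at least 2-fold lower (1.06% of all genes) and 1 higher (2.59% of all genes). ALPPL2, a placental-type alkaline phosphatase on the surface of naive cells, was listed at 156 RPKM in the control, 28.3 in the uCCNE1 library, 32.3 in the pCCNE1 library and 27.1 in untreated cells. The control library was the one that stood apart, while the other 3 lay close together. Its near copy ALPP was at 14.9, 3.73, 4.24 and 2.27 RPKM, and reads shared between the 2 genes make both uncertain. PRAP1, a secreted acidic protein, was at 47.7, 15.1, 12.8 and 8.08 RPKM, again with the control highest. KHDC1L was at 407 RPKM in the control, 171 in the uCCNE1 library, 187 in the pCCNE1 library and 67.7 in untreated cells. FGF4, a growth factor of the early embryo, was at 22.8, 9.995, 9.22 and 3.51 in that order. In both genes the control was the highest library of 5iLA H7. DNMT3L, a partner of the DNA methyltransferases, was at 96.0 RPKM in the control and 77.8 in the uCCNE1 library, and DPPA5 at 273 and 156. The transcription factors KLF4 and TFCP2L1 were at 20.2 and 14.01 and at 8.17 and 7.16, control first. None of the 10 naive markers was higher in the uCCNE1 library as deposited, where 78.9% of all genes lay below 0. On the mRNA-matched scale these markers fell on both sides of 0, with KLF17 at 0.26 and DNMT3L at 0.25, and KHDC1L at -0.69 and ALPPL2 at -1.88. TBX3, a transcription factor, was the list member at least 2-fold higher on the mRNA-matched scale, at 2.07 and 4.34 RPKM.

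Core pluripotency genes had a median of -0.40 over 17 tested members as deposited and 0.15 on the mRNA-matched scale. NANOG, a core factor of pluripotency, was at 130 RPKM in the control, 62.0 in the uCCNE1 library, 74.7 in the pCCNE1 library and 32.4 in untreated cells, and was the single member past 2-fold as deposited. Its mRNA-matched difference was -0.50. POU5F1 was at 84.6 RPKM in the control and 44.2 in the uCCNE1 library, and SOX2 at 31.2 and 16.5, both other core factors. GDF3, a TGF-beta family ligand, was at 218 and 252 RPKM, and L1TD1, an RNA-binding protein, at 53.03 and 70.001. They were among the 5 members above 0 as deposited, none of which passed 2-fold. NODAL, the ligand that keeps pluripotency genes on, is not on this list and was at 30.8 and 36.4 RPKM.

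GPRC5A, a retinoic acid-induced membrane receptor, had the largest rise in value, at 1.92 RPKM in the control, 19.3 in the uCCNE1 library, 29.1 in the pCCNE1 library and 4.93 in untreated cells. PTN, the growth factor pleiotrophin, was at 0.525, 8.99, 4.48 and 9.80 RPKM in that order. ANXA1, a calcium-dependent membrane-binding protein, was at 3.85, 24.4, 17.9 and 62.2. In all 3 the control library was the lowest of the 4. WLS, which carries WNT ligands to the cell surface, was at 2.24 RPKM in the control and 12.2 in the uCCNE1 library, and HAPLN1, a hyaluronan link protein, at 1.55 and 9.17. SPP1, the secreted phosphoprotein osteopontin, was at 7.12 in the control, 28.9 in the uCCNE1 library, 4.28 in the pCCNE1 library and 153 in untreated cells. FBN2, a microfibril protein, was at 2.16, 6.69, 1.505 and 9.70 RPKM. For SPP1 and FBN2 the pCCNE1 library was the lowest and not the control. The log2 ratio for GPRC5A had a 95% counting interval of 3.14 to 3.54, and that for ANXA1 one of 2.34 to 3.002. Of the 15 largest rises, 12 were higher in untreated 5iLA H7 than in the control library, and 10 were higher in it than in the uCCNE1 library. Of the 15 largest falls, 3 were higher in untreated 5iLA H7 than in the control and 11 higher than in the uCCNE1 library. Rises are picked in part for a low control value and falls for a high one, so the selection itself shapes these counts. The share of all genes higher in untreated 5iLA H7 than in either library was not counted, so these counts have no background. Summed mRNA was 153310 RPKM in the untreated library and 105104 in the uCCNE1 library. The untreated library belongs to a separately made table, and against it 603 genes were at least 2-fold higher in the control library (4.98%) and 1245 lower (10.3%).

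The 15 largest falls were of mixed kinds. Of these, HIST1H4J, HIST1H4K, HIST1H2BN, HIST1H4I and HIST1H3H are histone genes. SERF1B, RPL21 and PTMA have near-identical copies or many processed pseudogenes, so their values are uncertain. GFPT1, the first enzyme of the hexosamine pathway, was at 57.4 RPKM in the control, 14.2 in the uCCNE1 library, 28.1 in the pCCNE1 library and 21.8 in untreated cells, the uCCNE1 library being the lowest. The troponin genes TNNI3 and TNNT1, muscle contraction subunits, were at 9.13 and 1.36 RPKM and at 49.5 and 12.3 RPKM, control first. PTMA, which encodes prothymosin alpha, was at 480 RPKM in the control and 138 in the uCCNE1 library. The median transcript length was 1221 bases for the 15 falls and 3732 bases for the 14 of 15 rises that had a length. All 15 on each side also passed 2-fold on the mRNA-matched scale.

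**Figure D4:**
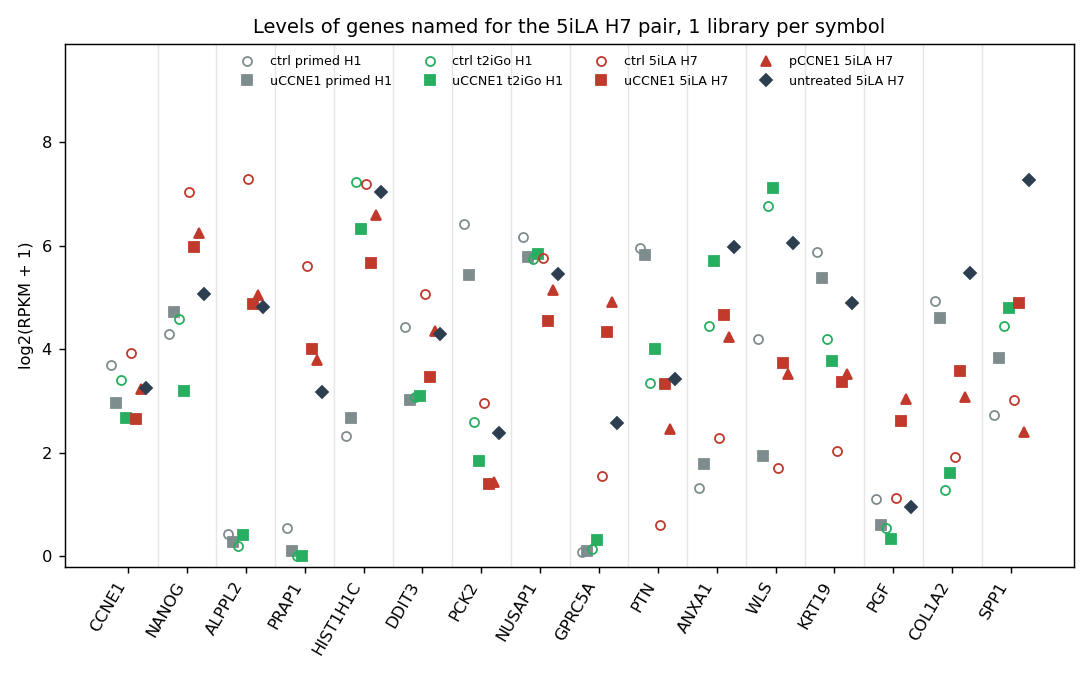
Level, as log2(RPKM + 1) as deposited, of 16 named genes in 8 libraries, 1 library per symbol: control (open circles), uCCNE1 (squares) and pCCNE1 (triangle) shRNA libraries, grey for primed H1, green for t2iGo H1 and red for 5iLA H7, with untreated 5iLA H7 as dark diamonds. For GPRC5A, PTN, ANXA1 and COL1A2 the red open circle lies below the other symbols of 5iLA H7, and for ALPPL2 and PRAP1 above them.

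Trophoblast, amnion and simple epithelial keratin genes had the highest list median. Of 31 genes 29 were matched in the table and 14 were tested, the other matched ones, among them CDX2, GATA3 and TFAP2A, having a mean under 1 RPKM. Of these 14, 2 were at least 2-fold higher as deposited, against 0.528% of all genes, with a median of 0.67. On the mRNA-matched scale 8 were at least 2-fold higher, against 2.59% of all genes, and the median was 1.18. KRT8 and KRT18, partner keratins of simple epithelia, were at 8.04 and 18.6 RPKM in the control, 15.5 and 35.8 in the uCCNE1 library, 19.6 and 31.3 in the pCCNE1 library and 87.3 and 150.0 in untreated cells. KRT19 was at 3.08 RPKM in the control and 9.38 in the uCCNE1 library, and PGF, placental growth factor, at 1.18 and 5.10. HAVCR1, a surface phosphatidylserine receptor, was at 55.2 and 91.2, and CGA, the alpha subunit of glycoprotein hormones, at 39.5 and 51.9. TEAD4, a factor of early trophectoderm, went the other way, at 28.2 and 14.4. The 7 trophoblast and amnion markers summed to 41.9 RPKM in the control and 55.8 in the uCCNE1 library, nearly all of it CGA. The defining factors stayed low: CDX2 was at 0.0507 and 0.0753 RPKM, GATA3 at 0.743 and 1.36, and TFAP2A at 0.806 and 0.574. The list's mRNA-matched median with the uCCNE1 shRNA was -0.03 in primed H1 and 0.02 in t2iGo H1, and 0.92 with the pCCNE1 shRNA in 5iLA H7.

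Fibroblast and feeder-type genes, mostly matrix proteins, were higher too. Of 22 tested, 4 were at least 2-fold higher as deposited (0.528% of all genes) and 8 on the mRNA-matched scale (2.59%), with medians of 0.39 and 0.82. COL1A2, a chain of collagen I, was at 2.77 RPKM in the control, 10.95 in the uCCNE1 library, 7.49 in the pCCNE1 library and 43.2 in untreated cells. COL3A1 was at 0.269, 2.60, 2.52 and 4.44 RPKM, and the intermediate filament gene VIM at 0.507, 2.09, 1.60 and 120. In each of these 3 genes the control was the lowest and the untreated library the highest. TAGLN, known from smooth muscle actin bundles, stood at 0.862 RPKM in the control and 3.76 in the uCCNE1 library, and FN1, fibronectin, at 24.4 and 39.2. A pair of collagen VI chains did not share the direction: COL6A1 was at 1.196 and 0.606 RPKM and COL6A2 at 1.35 and 0.830. The 6 fibroblast and feeder markers summed to 3.26 RPKM in the control, 14.4 in the uCCNE1 library, 11.7 in the pCCNE1 library and 53.8 in untreated cells, all 6 being higher in the uCCNE1 library than in the control. LUM, DCN, POSTN and COL1A1 were under 1 RPKM in the uCCNE1 library. The part of other cells in these differences was not tested.

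Actin cytoskeleton genes had medians of -0.08 as deposited and 0.47 on the mRNA-matched scale over 28 tested members, with 2 and 7 at least 2-fold higher, against 0.528% and 2.59% of all genes. BMP signalling and ID genes, 14 tested, had medians of 0.29 and 0.76, with none and 4 past 2-fold on the higher side, against those same shares. Among their members BAMBI, a pseudoreceptor that damps BMP and activin signals, was at 5.53 RPKM in the control and 10.8 in the uCCNE1 library, MSX2, a BMP target, at 0.652 and 2.14, and ID2, an inhibitor of bHLH factors, at 0.885 and 2.14. ID1 stood at 4.95 and 3.13, so not all ID genes were on one side. Endoderm and hypoblast genes, 18 tested, had a median of 0.24 as deposited, with none past 2-fold. Their mRNA-matched median was 0.48 and 6 were at least 2-fold higher on that scale (2.59% of all genes), none of them a lineage factor: COL4A1, a basement membrane collagen, was at 4.75 and 10.3 RPKM, and LAMB1, a laminin chain, at 6.93 and 11.6. The endoderm markers summed to 0.409 and 0.428 RPKM, with SOX17 and FOXA2 under 0.1 in both libraries. FGF and ERK pathway genes, 23 tested, had a median of 0.12 as deposited, with none at least 2-fold higher and 2 lower. Their mRNA-matched median was 0.35, with 4 higher (2.59% of all genes) and none lower, while the 6 members of at least 5 RPKM had a median of -0.30. FGFR1 was at 1.80 RPKM in the control and 3.81 in the uCCNE1 library and FGF2 at 4.31 and 6.72, while FGFR4 was at 12.8 and 4.36.

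Primed state genes were low in both libraries and some were higher in the uCCNE1 library. Of 32 tested, 3 were at least 2-fold higher as deposited (0.528% of all genes) and 6 on the mRNA-matched scale (2.59%), none was lower on either, and the medians were 0.04 and 0.20. The 6 members of at least 5 RPKM had an mRNA-matched median of -0.02. CD24, a surface glycoprotein of primed cells, was at 18.0 RPKM in the control, 40.8 in the uCCNE1 library, 41.6 in the pCCNE1 library and 186 in untreated cells. LEFTY2, a NODAL antagonist, was at 7.57 RPKM in the control and 17.0 in the uCCNE1 library, and CDH2, N-cadherin, at 0.263 and 1.52. The 8 primed markers summed to 23.9 and 48.2 RPKM, against 1640 to 1917 in primed H1, with 6 of 8 higher in the uCCNE1 library and SFRP2 listed at 0 there. CD24 made up most of the sum.

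Cytosolic ribosomal protein genes were lower as a list by small amounts. All 78 lay below 0 as deposited and 77 below the pair's median, 12 were at least 2-fold lower (4.94% of all genes) and the median was -0.73. On the mRNA-matched scale the median was -0.18, 67 lay below 0, where 42.0% of all genes did, and 1, RPL21, was at least 2-fold lower. Nuclear-encoded respiratory chain genes, 66 tested, had medians of -0.73 and -0.18 as well. All 66 lay below 0 as deposited, 61 below the pair's median and 47 below 0 on the mRNA-matched scale, with 8 at least 2-fold lower as deposited and none on the mRNA-matched scale. Both lists are of short transcripts (medians of 832 and 908 bases), and their members of at least 1000 bases had mRNA-matched medians of -0.14 and -0.09. Among mRNA entries of at least 5 RPKM, transcripts under 1000 bases had an mRNA-matched median of -0.12. The p53 target genes, 28 tested, had medians of -0.68 as deposited and -0.17 on the mRNA-matched scale, with TP53I3 alone past 2-fold, on the higher side of the latter, at 0.987 and 2.13 RPKM and CDKN1A, the CDK inhibitor p21, at 7.30 and 3.70. Mediator and enhancer cofactor genes, 44 tested, had medians of -0.41 and 0.02. Interferon-induced genes, 31 tested, had medians of -0.09 and 0.03. Their 12 members of at least 5 RPKM had medians of -0.69 and -0.19, against -0.51 and 0.0003 for all genes of that level. As deposited 4 members were at least 2-fold lower (4.94% of all genes). BST2, tetherin, was at 2.77 RPKM in the control and 0.216 in the uCCNE1 library and listed at 0 in the pCCNE1 library. The letters of the interferon-stimulated response element, 10 bases long and read on both strands, were found in 15 of 25 matched promoters of that list, against 2.68% of the 9284. Imprinted genes, 19 tested, had a median of -0.12 as deposited, with 8 above 0, and of 0.27 on the mRNA-matched scale, with 18 above 0, where 57.3% of all genes lay. H19, a long noncoding RNA, was at 7.89 RPKM in the control, 16.3 in the uCCNE1 library, 24.7 in the pCCNE1 library and 6.69 in untreated cells, and RTL1, a retrotransposon-derived gene, at 3.44, 8.18, 10.9 and 0.620.

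The other 17 lists, among them heat shock, cholesterol synthesis, WNT, chromatin, apoptosis and blood genes, had mRNA-matched medians from -0.04 to 0.44. Over their 315 tested entries, 8 were at least 2-fold higher and 1 lower on that scale, where 2.59% of all genes were higher and 1.06% lower, so these counts do not exceed the background. TET2, which oxidises methylated cytosine, was at 0.960 RPKM in the control, 3.10 in the uCCNE1 library and 3.44 in the pCCNE1 library. PFKP, a glycolytic phosphofructokinase, was at 9.11, 18.4 and 19.6 RPKM, and ODC1, the first enzyme of polyamine synthesis, at 33.6, 55.3 and 52.8. In these 3 genes both CCNE1 shRNA libraries lay above the control. HSPA8, a constitutive chaperone, was at 255 RPKM in the control and 334 in the uCCNE1 library, and the survival factor MCL1 at 108 and 53.7.

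Short structural RNAs were lower by sum. H/ACA small nucleolar RNAs, which guide pseudouridylation, summed to 25755 RPKM in the control, 11699 in the uCCNE1 library and 6851 in the pCCNE1 library, and C/D box RNAs, which guide ribose methylation, to 7143, 3613 and 1653. SNORA63, the H/ACA RNA with the most RPKM in the control, was at 6961 RPKM there, 2368 in the uCCNE1 library and 1404 in the pCCNE1 library. RMRP, the RNA of RNase MRP, was at 15608 RPKM in the control, 5418 in the uCCNE1 library, 6202 in the pCCNE1 library and 19355 in untreated cells, and at 2.81 to 10.5 RPKM in primed H1. Values of such RNAs depend on how many short fragments a library keeps and are uncertain.

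Set beside the other uCCNE1 pairs, which share no library with this one, the differences of 5iLA H7 followed those of t2iGo H1 (Pearson r = 0.23, Spearman rho = 0.24) and of primed H1 (r = 0.14, rho = 0.14) weakly across the 12116 genes. Over 4787 mRNA entries of at least 5 RPKM the values were r = 0.37 and 0.28. Genes are not independent, and length and base composition are shared by the points. Of the 15 largest falls in 5iLA H7, 3 were at least 2-fold lower on the mRNA-matched scale in primed H1, where 1.73% of all genes were, and 3 in t2iGo H1, where 0.702% were. Of the 15 largest rises, 1 was at least 2-fold higher in primed H1 (0.553% of all genes) and 2 in t2iGo H1 (0.47%). TNNI3 and TNNT1 were among the falls shared with primed H1, with mRNA-matched differences of -2.05 and -1.45 there. ANXA1 and PCSK1, a prohormone-cutting protease, were the rises shared with t2iGo H1, at 1.30 and 1.63. WLS went the other way in primed H1, at -2.05.

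**Figure D5:**
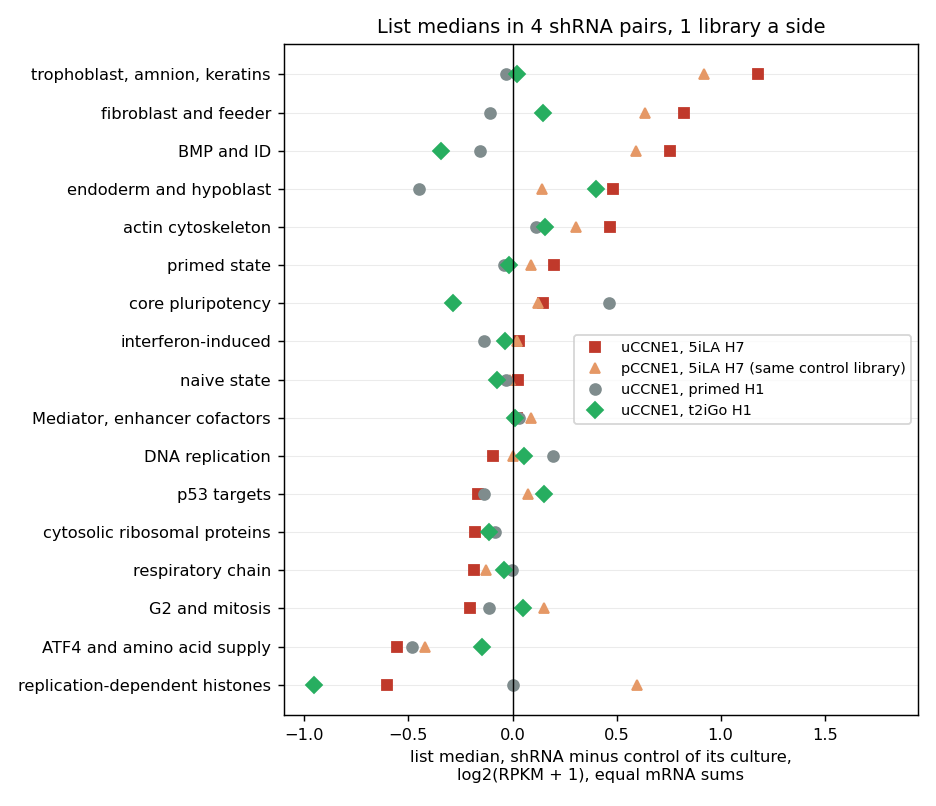
Median difference of each gene list, in log2(RPKM + 1) on the mRNA-matched scale, for the uCCNE1 pair of 5iLA H7 (red squares) beside the pCCNE1 pair of 5iLA H7, which uses the same control library (orange triangles), and the uCCNE1 pairs of primed H1 (grey circles) and t2iGo H1 (green diamonds), 1 library a side. The trophoblast, fibroblast and BMP lists lie between 0.60 and 1.18 in both 5iLA pairs and between -0.35 and 0.14 in the H1 pairs, and the histone list lies at -0.60 in the red pair and 0.60 in the orange one.

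Whether the uCCNE1 library of 5iLA H7 departed from the pattern that culture and shRNA give in the other libraries was tested with limma on log2(RPKM + 1), with 3 residual degrees of freedom and the lone library assumed to vary like the rest. Of 12116 genes, 4 were called at an adjusted p under 0.05 (0.033%), and 363 had an unadjusted p under 0.05. All 4 were short RNAs, SNORA26, SNORA13 and MIR498 above the pattern and SNORA5A below it. SNORA26, SNORA13 and MIR498 passed the level filter only through the library tested, so their calls cannot decide whether they changed. The median departure over all genes was -0.18 on this deposited scale. With mRNA entries alone none was called, 372 had an unadjusted p under 0.05 and the smallest adjusted p was 0.209. CCNE1 departed by -0.42 (SE 0.35, limma adjusted p = 0.988), ALPPL2 by -1.31 (SE 0.74, limma adjusted p = 0.988), and FBN2 by 1.99 (SE 0.31, limma adjusted p = 0.261). PTCD1, a mitochondrial RNA-binding protein, had the smallest adjusted p among mRNA entries below the pattern, at -2.13 (SE 0.32, limma adjusted p = 0.261), with 4.12 RPKM in the control, 0.137 in the uCCNE1 library and 3.44 in the pCCNE1 library of 5iLA H7. No protein-coding gene named here was shown to depart from the pattern of culture and shRNA. The pattern also uses the pCCNE1 library of 5iLA H7, so a change shared by both shRNAs in 5iLA H7 is partly taken into it. The test therefore cannot decide whether the uCCNE1 difference itself varies between cultures. For ALPPL2 that difference was -2.42 in 5iLA H7, -0.15 in primed H1 and 0.22 in t2iGo H1, as deposited. The gene was at 0.355 and 0.217 RPKM in primed H1 and at 0.143 and 0.331 in t2iGo H1, control first. With 1 RPKM added, differences at such levels are held near 0, so these values cannot show whether the difference varies between cultures.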

How the data were processed

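RNA of 11 libraries, 1 per group, was profiled by RNA sequencing, from total RNA prepared with RNeasy Mini and TruSeq RNA kits per the labels' protocols. The authors deposited RPKM values per gene for 23287 genes, in a table of 9 shRNA libraries and a table of 2 untreated libraries. TopHat2, Cufflinks and the hg19 build are named per the submitters' processing notes, with settings and strand use not stated there. Values were analysed as log2(RPKM + 1), for the 12116 genes with a mean of at least 1 RPKM over the 9 libraries, as deposited, relative to the pair's median, and after scaling each library to the mean summed RPKM of mRNA entries. Depth is not part of an RPKM table and was estimated. Lengths came from GENCODE release 29 (21905 genes), promoters from RefSeq (9284 of 11250 tested mRNA entries), and no coordinate was carried between builds.

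Departure from an additive model of culture and shRNA was tested with limma 3.58.1 in R 4.3.3 (intensity trend, Benjamini-Hochberg over all genes), checked on simulated data. With 1 library per group, p-values measure only the spread between these libraries. Named genes were CCNE1 and CCNE2, the 15 largest rises and falls among mRNA entries of at least 5 RPKM in 1 of the 2 libraries, up to 5 members per list, and the 3 smallest p in each direction; members of the lists beyond these, and the short RNAs other than those 4, were chosen for their role after their values were seen. The libraries, the 39 gene lists and these rules were chosen with earlier results of these data known. Alternatives were another pseudocount, other filters, other scalings and fewer cultures.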

Additional observations from a re-analysis of the deposited data

Results flagged for a closer look

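The uCCNE1 library of 5iLA H7 departed from the pattern of culture and shRNA over the 9 shRNA libraries for 4 short RNAs, by the limma term for that library. SNORA26 stood 5.40 above the pattern on the log2 scale, SNORA13 5.30 above it and MIR498 5.17 above it. They were listed at 41.1, 38.4 and 35.0 RPKM in that library and at 0 in the other 8 shRNA libraries, and in untreated 5iLA H7 at 27.6, 6.51 and 0 RPKM. These RNAs passed the level filter only through the library in which they were called. With 0 in the other 8 they had no spread of their own, so the test cannot decide whether they changed. SNORA5A stood at -4.91 (SE 0.39, limma adjusted p = 0.0022). It was listed at 33.4 RPKM in the control and 18.1 in the uCCNE1 library of 5iLA H7, and at 0 in the control and 13.4 and 24.8 in the uCCNE1 libraries of primed and t2iGo H1. A value of 0 in such a table can be a failed estimate, and each departure rests on 1 library.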

How the results depend on the processing

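No paired analysis was possible because each group is 1 library and the labels carry no replicate numbers. With 1 library a side, leaving one out gives no value. The median difference of -0.34 was -0.44 with a pseudocount of 0.1, -0.034 with no filter, -0.44 with a mean of at least 5 RPKM over the 9 libraries, -0.40 with at least 1 RPKM over the pair, 0 relative to the median, 0.066 with equal mRNA sums and -0.0022 with quantile normalization. With transcripts of at least 1000 bases, an alternative chosen after seeing the data, it was -0.32. The counts of genes at least 2-fold higher and lower, 64 and 598, were 336 and 1404 with the pseudocount of 0.1, 188 and 148 relative to the median, 314 and 129 with equal mRNA sums, 181 and 131 with quantile normalization, and 36 and 475 with at least 5 RPKM. The CCNE1 difference of -1.27 was -0.94 relative to the median, -0.80 with equal mRNA sums and -0.82 with quantile normalization. The shares of higher genes in these counts were 19.3% with the pseudocount of 0.1 and 58.0% with quantile normalization, against 9.67%.

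The limma test called 4 genes, 1 with a pseudocount of 0.1, 1 with at least 5 RPKM, 0 with mRNA entries only, 3 with quantile normalization and 4 with equal mRNA sums, the last chosen after seeing the data. It called 9 without the primed H1 libraries and 57 without the t2iGo H1 libraries, each with 1 residual degree of freedom. The cause was not tested. Of the list medians, 77 values under other settings stayed within their spread and 108 moved. For the named genes these counts were 1295 and 365, and no gene past 2-fold as deposited changed sign. The signs of several list medians depend on the scale, among them those of the core pluripotency, naive, imprinted and interferon lists. The comparison is limited by the absence of replicates and by depth that could only be estimated.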
